A study of Equus caballus with 4 samples.

Results

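The genes described here are 9 genes of the response to oxidative stress: the pentose phosphate enzymes *pgd*, *taldo1* and *tkt*, and the NRF2 targets *txnrd1*, *nqo1*, *hmox1*, *gclm*, *srxn1* and *pir*. Their probes were taken as the noncontrol probes whose gene name in the array files equals one of these symbols, ignoring case. This gave 20 of 43603 probes, for 8 of the 9 genes. No probe carried the name *srxn1* (sulfiredoxin, which repairs overoxidized peroxiredoxins), so that gene is not analysed here. All 20 probes, each of 60 bases, were well above background in both channels on all 4 arrays, and all were tested.

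Satellite cells were isolated from the *semitendinosus* muscle of 6-month-old colts and studied on day 3 of differentiation. GO-treated cells had been incubated for 24 h with 125 nM gamma-oryzanol (GO, a mixture of ferulic acid esters of plant sterols from rice bran oil), dissolved in DMSO at 0.04 μl/ml. Control cells received the same dose of DMSO without GO. On each of 4 arrays, cRNA of GO-treated cells was labeled with Cy5 and cRNA of control cells with Cy3, so the effect of the dye on a probe and the effect of GO cannot be told apart. The labels call the arrays biological replicates. The methods describe colts as the source of several cell lines, of which 1 was taken further, so the arrays may all represent that line, and the p-values then measure only the spread between these samples, which may be technical.

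NRF2, the transcription factor encoded by *nfe2l2*, is held in the cytoplasm by KEAP1, which directs it to degradation. Oxidants and electrophiles block this step, and NRF2 then binds antioxidant response elements together with small MAF proteins. Its known targets conjugate or reduce electrophiles, make glutathione, degrade heme, and supply NADPH, much of it from the pentose phosphate pathway.

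Each spot has a log ratio of the GO over the control signal, given here as log2 and averaged over spots of a probe. The thresholds for a change were an adjusted p of 0.05 (limma, two-sided, Benjamini-Hochberg adjustment over 26831 tested probes) and a fold change of 1.3, which is 0.38 on the log2 scale. Among noncontrol spots, the share well above background was 63.5 to 68.9% for control and 57.4 to 67.0% for GO-treated cells over the arrays, with 0 saturated spots. Past both thresholds were 8.94% of all tested probes, 3.33% higher and 5.61% lower in GO-treated cells, and 18.1% passed the adjusted p alone. Counted with the brightest probe of each gene, the share was 8.67% of 9500 genes, 3.31% higher and 5.37% lower. Precision is limited by the number of arrays.

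Some probes of *pir* and *pgd*, genes whose probes differed in some results, are shown with their positions on EquCab1. The *pir* probe at base 889 is not shown. For *pir*, the probes at bases 809 and 849 of the transcript share 20 bases, in capitals. The probe at base 809 lies on the minus strand of chrX:4963096-4968438, a span of 5343 bases that exceeds its length, so it joins sequence from both sides of an intron, and the probe at base 849 lies on the minus strand of chrX:4963056-4963115.
PIR 809: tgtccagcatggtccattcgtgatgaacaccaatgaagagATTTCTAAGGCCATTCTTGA
PIR 849: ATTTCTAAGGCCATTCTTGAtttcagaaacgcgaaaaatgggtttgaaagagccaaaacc

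For *pgd*, 5 of the 6 probes are tiled over nearly the same sequence and share 52 bases, in capitals, and the 6th lies 783 bases downstream in the transcript. They are on the minus strand of chr2:39039320-39039379, chr2:39039312-39039371 and chr2:39033778-39033837, in the order given.
PGD 559: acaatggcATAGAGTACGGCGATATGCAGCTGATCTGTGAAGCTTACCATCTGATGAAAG
PGD 567: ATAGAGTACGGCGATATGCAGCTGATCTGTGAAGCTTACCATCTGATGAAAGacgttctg
PGD 1342: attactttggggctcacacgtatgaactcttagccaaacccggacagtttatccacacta

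The single *hmox1* probe is shown because its value on 1 array stood apart from the others. It lies on the plus strand of chr28:32851501-32852382, a span of 882 bases that also exceeds its length.
HMOX1 606: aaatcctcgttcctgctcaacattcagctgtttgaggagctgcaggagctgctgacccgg

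The other probes lie on chromosomes 5 (*gclm*), 3 (*nqo1*), 16 (*tkt*) and 28 (*txnrd1*) of the same build, and those of *taldo1* on sequence not placed on a chromosome. The *tkt* probe spans chr16:34608978-34610268 on the plus strand and also joins sequence across an intron.

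Of the 8 genes with a probe, 1 was past both thresholds, *pir*, with all 3 of its probes higher in GO-treated cells. This count of 1 of 8 genes, or 3 of 20 probes, stands beside shares of 8.67% of all genes and 8.94% of all probes, 3.31% and 3.33% in the same direction, and so few genes allow no reading of the difference. By the adjusted p alone *gclm* passed as well, which makes 2 of 8 genes beside 17.2% of all genes, but its pass was lost under 8 of 12 alternatives. The mean ratio of the brightest probe was above 0 for 6 genes and below 0 for 2. Among the 6, the mean turned below 0 for *pgd* without array 1 (-0.076) and for *hmox1* without array 4 (-0.0093). Among the 2, it turned above 0 for *taldo1* with median centring (0.0033). The median over the 8 genes was 0.18, and the median over all tested probes was 0.0047. For 4 genes, *pgd*, *taldo1*, *txnrd1* and *nqo1*, the 95% interval of the brightest probe lay within 0.38 of 0 on either side. For *pgd* this holds for the probe at base 1342 alone. The intervals of its 5 tiled probes had lower ends of 0.055 to 0.092 and upper ends of 0.43 to 0.48, past the threshold.

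**Figure D1:**
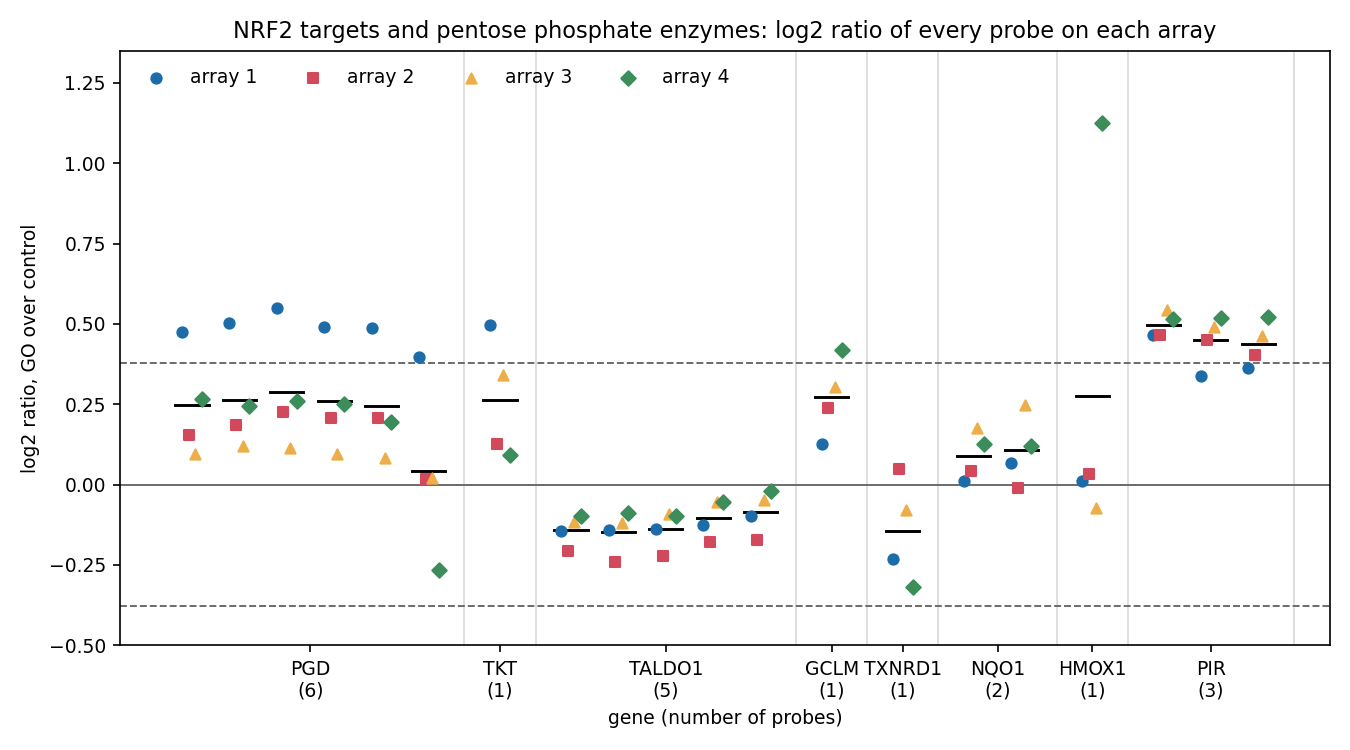
The log2 ratio of GO over control is plotted for each of the 20 probes on arrays 1 to 4 (symbols), with the mean as a black bar and the 1.3-fold thresholds as dashed lines. The 3 *pir* probes have means of 0.44 to 0.50, above the dashed line, and *hmox1* has 1 array at 1.13 while the others are close to 0.

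The change in *pir* was small and alike on all arrays. *Pir* encodes pirin, an iron-binding nuclear protein. The probe at base 809 had a processed signal of 747, 628, 758 and 707 in control cells and of 1031.5, 867, 1105 and 1010.1 in GO-treated cells on arrays 1 to 4. Every GO-treated signal was above every control signal. Its log2 ratios were 0.47, 0.47, 0.54 and 0.51. Their mean of 0.50 ± 0.04 (SD, n = 4) is 1.41-fold and larger than the spread between arrays (limma, adjusted p = 0.00446). The 95% interval was 0.37 to 0.63 on the log2 scale.

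The other *pir* probes gave close values. The probe at base 849 had log2 ratios of 0.34, 0.45, 0.49 and 0.52, with a mean of 0.45 ± 0.08 (SD, n = 4; limma, adjusted p = 0.00667). The probe at base 889 had 0.36, 0.40, 0.46 and 0.52, with a mean of 0.44 ± 0.07 (SD, n = 4; limma, adjusted p = 0.00667). On these probes array 1 was the lowest and array 4 the highest. The probes overlap in the transcript and were hybridized to the same cRNA, so they are not independent measurements.

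The call of the *pir* probe at base 809 held under 13 of 14 other settings of normalization, filter, test and replicate, with a log2 ratio between 0.43 and 0.52, although the deposited value table and another form of the dim filter gave the same values as the main setting. It was lost in the remaining setting, added after the data were seen, in which the channels were tested as separate samples with no normalization between arrays (limma, adjusted p = 0.0853). With the channels normalized between arrays the unpaired test gave an adjusted p of 0.0254. The plain one-sample test passed this probe alone (adjusted p = 0.0402), with 0.0623 at base 849 and 0.0568 at base 889, and with normexp and loess the probe at base 889 was under the fold threshold (0.36).

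The genes whose 4 log2 ratios were closest to those of the *pir* probe at base 809, by Euclidean distance over 4 arrays among 9492 genes, were *ccdc109b* (distance 0.0994), *fezf2* (0.111) and *slc26a10* (0.118). Their mean log2 ratios were 0.47, 0.54 and 0.51. With 4 arrays this is a description of similar values only.

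*Gclm* encodes the modifier subunit of glutamate-cysteine ligase, the enzyme that limits glutathione synthesis. Its 1 probe had a processed signal of 710, 540, 742 and 652 in control cells and of 775, 637, 916 and 873 in GO-treated cells. The signal was higher in GO-treated cells on each array, but the groups overlapped. The log2 ratios were 0.13, 0.24, 0.30 and 0.42, with a mean of 0.27 ± 0.12 (SD, n = 4; limma, adjusted p = 0.0385). The fold change was 1.21, below the threshold of 1.3, and the 95% interval ran from 0.11 to 0.43. The log2 ratio was above 0 on each array, so omitting or weighting arrays could not turn the mean below 0. The other filters and tests left the ratio unchanged. With normexp and loess it was 0.24, and with median centring 0.285. Under the 12 alternatives that could change the ratio or the test, the adjusted p was over 0.05 in 8 and ranged from 0.0211 to 0.55 (limma or the plain test). Without array 2, 3 or 4 it was 0.12, 0.129 or 0.118, with median centring 0.0571 and with no filter on dim probes 0.097, and the plain one-sample test did not pass either. With the channels unpaired it was 0.362, or 0.55 without normalization between arrays.

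*Hmox1* encodes heme oxygenase, which opens the heme ring and releases iron. The processed signal of its probe was 92.8, 55.6, 53.4 and 36.6 in control cells and 93.6, 56.9, 50.8 and 79.9 in GO-treated cells. Arrays 1 to 3 had nearly equal signals in both channels, and on array 4 the GO signal was above the control signal. The log2 ratios were 0.012, 0.033, -0.073 and 1.13. The mean was 0.27 ± 0.57 (SD, n = 4; limma, adjusted p = 0.366) and was -0.0093 without array 4. The 95% interval of -0.20 to 0.75 includes changes past the threshold. On array 4 the raw signals were 166 for control and 246 for GO over local backgrounds of 48 and 53, and the spot was not marked as an outlier. The deposited signals less background on that array were 68.8 for control and 169.6 for GO. More than the local background had thus been subtracted in both channels, and the part of this in the ratio was not tested.

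*Nqo1* and *txnrd1* did not pass. *Nqo1* encodes a quinone reductase and is commonly used as a readout of NRF2. Its brightest probe had log2 ratios of 0.013, 0.041, 0.18 and 0.13, with a mean of 0.09 ± 0.08 (SD, n = 4; limma, adjusted p = 0.321). The other probe, which starts 20 bases downstream, had a mean of 0.11 ± 0.11 (SD, n = 4; limma, adjusted p = 0.281). Processed signals of the brightest probe were 387 to 487 in control cells and 423 to 515 in GO-treated cells.

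*Txnrd1* encodes the cytosolic thioredoxin reductase. Its log2 ratios were -0.23, 0.050, -0.077 and -0.32, with a mean of -0.14 ± 0.16 (SD, n = 4; limma, adjusted p = 0.224). The ratio was below 0 on 3 arrays and above 0 on array 2. Its processed signal was 68.8 to 89.2 in control cells and 58.4 to 82.0 in GO-treated cells.

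**Figure D2:**
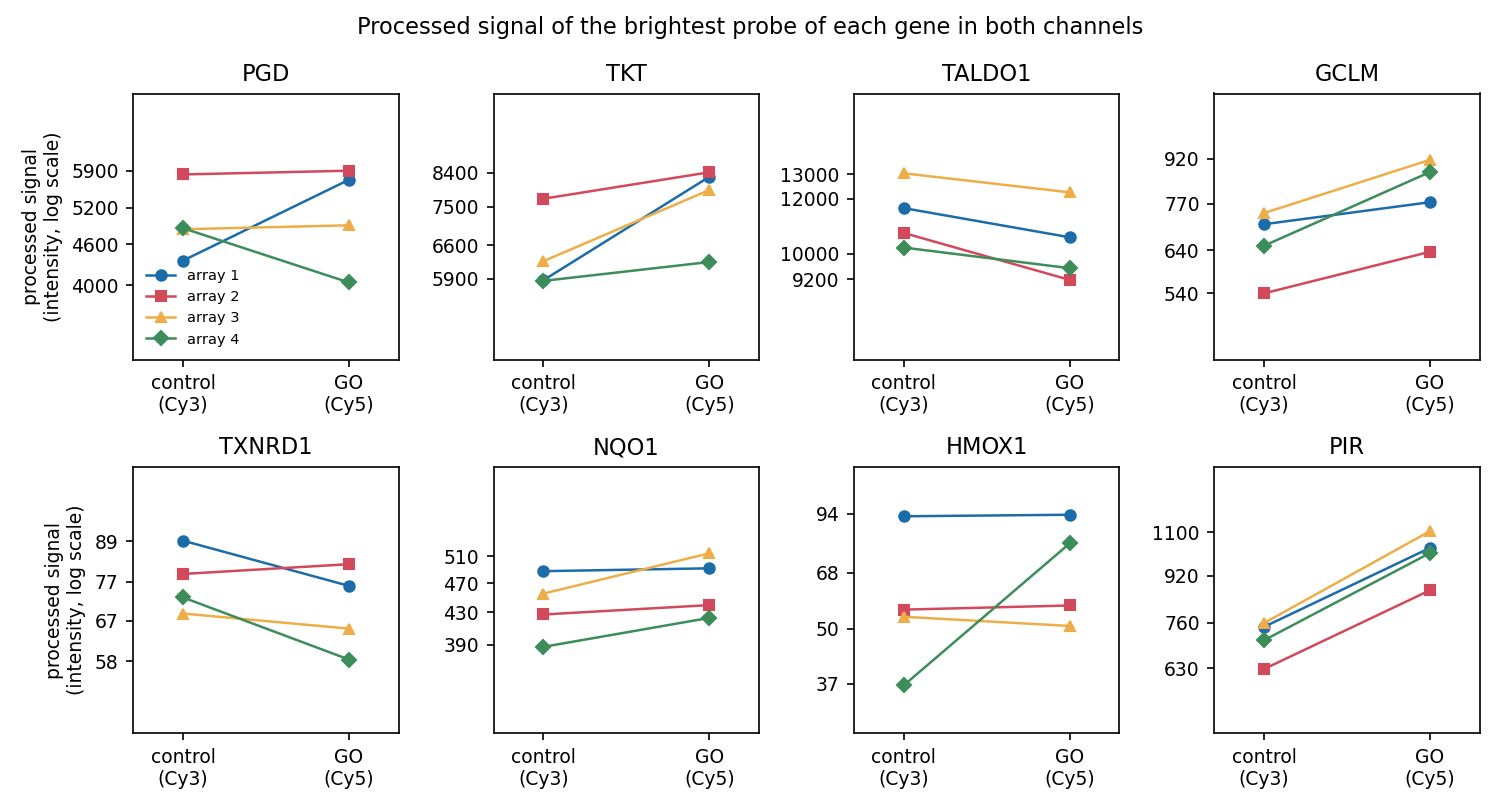
The processed signal of the brightest probe of each gene is plotted on a log scale for control (Cy3) and GO-treated (Cy5) cells, with a line for each array. All lines rise for *pir*, *gclm*, *tkt* and *nqo1*, all fall for *taldo1*, and the lines of *pgd*, *txnrd1* and *hmox1* run in both directions.

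None of the 12 probes of the 3 pentose phosphate enzymes passed the adjusted p (limma, 0 of 12, beside 18.1% of all probes). At an unadjusted p of 0.05, 9 of 12 passed beside 35.7% of all probes, and these were the 5 overlapping *pgd* probes and the *tkt* probe, higher, and 3 overlapping *taldo1* probes, lower. The plain one-sample test also gave 0 at the adjusted p. With normexp and loess 5 passed (2 of *pgd*, higher, and 3 of *taldo1*, lower) beside 16.3% of all probes. With median centring 6 passed (5 of *pgd* and that of *tkt*, all higher) beside 21.6%, so only *pgd* probes passed in both. None of these was past the fold threshold. *Pgd* encodes 6-phosphogluconate dehydrogenase, which produces NADPH in the oxidative branch. Its 5 tiled probes had mean log2 ratios of 0.24 to 0.29, with adjusted p between 0.0552 and 0.077 (limma). Array 1 was the highest for each of them, at 0.47 to 0.55. The brightest probe, at base 1342, had log2 ratios of 0.40, 0.018, 0.019 and -0.27, with a mean of 0.042 ± 0.27 (SD, n = 4; limma, adjusted p = 0.81). Its processed signal was 4348, 5828, 4837 and 4855 in control cells and 5724, 5903, 4903 and 4037 in GO-treated cells, and the groups overlapped.

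Both regions of *pgd* were thus measured on the same arrays with different ratios. The mean of the 5 tiled probes exceeded the ratio at base 1342 on each array, by 0.10, 0.18, 0.082 and 0.51. The mean difference was 0.22 ± 0.20 (SD, n = 4; exact sign-flip permutation test, two-sided, p = 0.13, the smallest that 4 arrays allow). This difference was chosen after the values were seen. The mean at base 1342 turned to -0.076 without array 1. With median centring it was 0.15, and the means of the tiled probes were 0.28 to 0.32. With normexp and loess it was 0.013, and those of the tiled probes were 0.20 to 0.24. The size of the difference thus varied with the normalization, and the cause was not tested.

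*Tkt* encodes transketolase, of the nonoxidative branch. Its probe had log2 ratios of 0.50, 0.13, 0.34 and 0.091, higher in GO-treated cells on each array. The mean was 0.26 ± 0.19 (SD, n = 4; limma, adjusted p = 0.0727), with a 95% interval of 0.065 to 0.46. With median centring it was 0.3781 (limma, adjusted p = 0.013), just under the fold threshold of 0.3785. With normexp and loess it was 0.21 (limma, adjusted p = 0.0735). Processed signals were 5873, 7705, 6257 and 5861 in control cells and 8288, 8415, 7932 and 6242 in GO-treated cells. The groups overlapped.

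*Taldo1* encodes transaldolase, the other enzyme of that branch. All 5 of its overlapping probes had ratios below 0 on each array, with means of -0.15 to -0.084 and adjusted p between 0.122 and 0.34 (limma). The brightest probe had log2 ratios of -0.14, -0.22, -0.09 and -0.098, a mean of -0.14 ± 0.06 (SD, n = 4; limma, adjusted p = 0.138). Its 95% interval was -0.27 to -0.0011. The mean was 0.0033 when each array was centred on its median with no lowess curve, but -0.21 with normexp and loess (limma, adjusted p = 0.0243), where 3 of the 5 probes passed the adjusted p. With median centring the 5 probes lay on both sides of 0, between -0.025 and 0.065. The lower ratio was thus not seen under each normalization, and the cause was not tested.

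The wider pathways were described with 58 further genes in 7 lists. Of these, 47 were on the array, 39 were tested, and 1 was past both thresholds, *blvrb*, which was higher in GO-treated cells. This is 2.56% of the tested genes beside 8.67% of all genes. The median log2 ratio of the 39 genes was 0.031, and 23 had a mean above 0.

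*Blvrb* encodes biliverdin reductase B, which works on the products of heme breakdown. Its 1 probe, on the minus strand of chr10:10850785-10850844, had processed signals of 7589, 6048, 6852 and 6652 in control cells and of 9359, 8428, 9305 and 9076 in GO-treated cells. Every GO-treated signal was above every control signal. The log2 ratios were 0.30, 0.48, 0.44 and 0.45, with a mean of 0.42 ± 0.08 (SD, n = 4; limma, adjusted p = 0.00793). The plain one-sample test did not pass (adjusted p = 0.0645), nor did the unpaired limma test without normalization between arrays (adjusted p = 0.117), and the ratio was 0.35, under the fold threshold, with normexp and loess.

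The other lists held no gene past both thresholds. The 5 tested genes of glutathione synthesis and reduction lay between -0.024 and 0.26 with a median of 0.17, and 10 detoxification and export genes lay between -0.49 and 0.21 with a median of -0.057. The other NADPH suppliers, 2 of 2 tested, were at -0.035 and 0.12. The regulators had 6 tested genes between -0.33 and 0.16, with *nfe2l2* at 0.076 ± 0.036 (SD, n = 4; limma, adjusted p = 0.359) and *keap1* at 0.16 ± 0.23 (SD, n = 4; limma, adjusted p = 0.281). The 5 tested genes among the other pentose phosphate enzymes lay between -0.042 and 0.19. The thioredoxin and peroxiredoxin genes, 5 of 5 tested, lay between -0.029 and 0.10. By the adjusted p alone 5 of the 39 tested genes of all lists passed, 2 higher and 3 lower, beside 17.2% of all genes. Besides *blvrb*, *slc7a11*, the cystine transporter, was higher (0.26; limma, adjusted p = 0.0286). Lower were *mafg* (-0.33; limma, adjusted p = 0.0209), *akr1b1* (-0.24; 0.0447) and *abcc2* (-0.31; 0.0464). Under 12 alternatives *slc7a11* and *mafg* passed in 5 each, *akr1b1* in 3 and *abcc2* in 2. These 4 genes, *nfe2l2*, *keap1* and *fth1* were named after their values were seen. *Fth1*, the ferritin heavy chain, had a log2 ratio of 0.041 ± 0.036 (SD, n = 4; limma, adjusted p = 0.628), but 0.39 with normexp and loess and 0.94 with median centring.

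**Figure D3:**
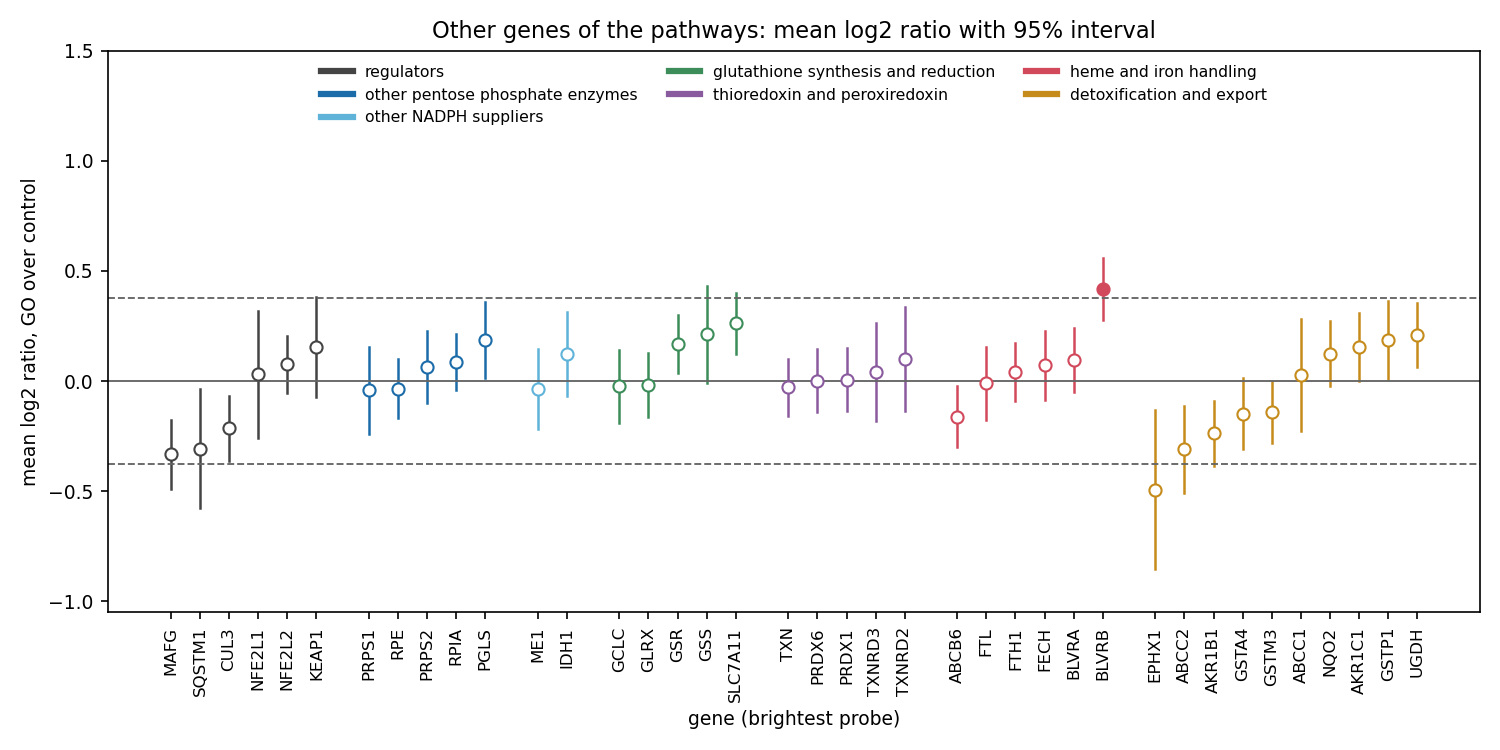
Mean log2 ratio of GO over control with its 95% interval (bars) for the 39 tested genes of the 7 pathway lists, with filled circles past both thresholds and dashed lines at 1.3-fold. Only *blvrb* is filled, at 0.42.

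**Figure D4:**
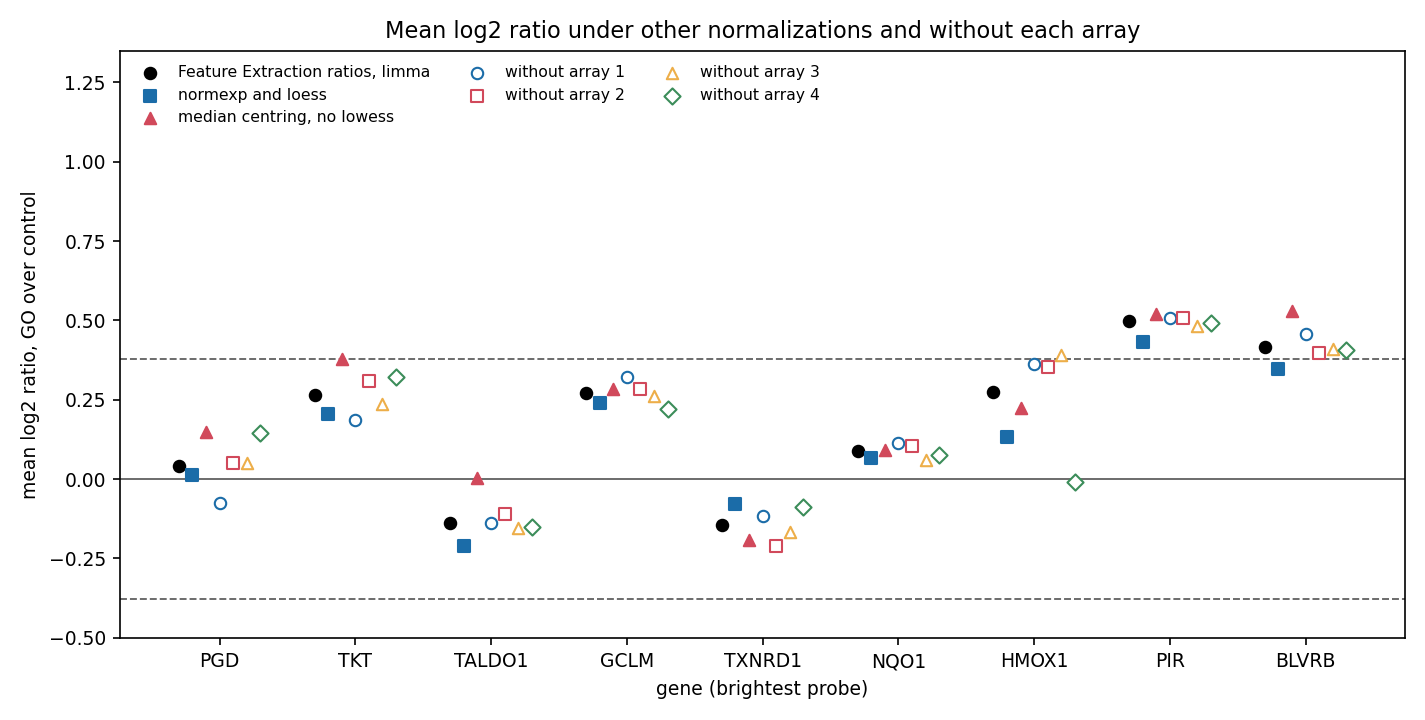
Mean log2 ratio of the brightest probe of each member, and of *blvrb*, under the Feature Extraction ratios, other normalizations and the omission of each array, with dashed lines at 1.3-fold. *Pir* lies between 0.43 and 0.52 under each of these settings, and the sign of *pgd*, *taldo1* and *hmox1* turns under 1 setting each.

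The cells carried muscle markers: 8 of the 8 skeletal muscle markers on the array were tested, including *des*, *myod1*, *myf5* and *myog*, whereas *pax7* was not analysed here. Of these 8 genes, 5 were past both thresholds and lower in GO-treated cells, by a log2 ratio of -0.93 for *myf5*, -0.83 for *myh3*, -0.64 for *acta1*, -0.61 for *des* and -0.40 for *myog*. Among all 9500 genes, 5.37% were past both thresholds and lower, and 8.67% in either direction. The median log2 ratio of the 8 genes was -0.50. Their summed processed signal was 146600 to 200900 in control cells and 85040 to 119900 in GO-treated cells, with no overlap. Most of this sum came from *myh3*, *acta1* and *des* (73264, 51857 and 18381 in control cells on array 1). These are among the 5 genes called lower, so the sum restates their ratios. Of 6 tested fibroblast markers, 1 was past both thresholds, *pdgfra*, which was higher (0.87 ± 0.48, SD, n = 4), beside 3.31% of all genes higher. Its processed signal was low, at 21.8 to 46.4 in control and 42.7 to 69.5 in GO-treated cells. The summed signals of the fibroblast markers overlapped (275900 to 440000 in control and 285100 to 396900 in GO-treated cells). Of 8 leukocyte markers on the array, 2 were tested and 0 passed, with sums of 4238 to 5043 and 4477 to 5319. None of the adipocyte (4 on the array) or endothelial (5 on the array) markers was well above background on all arrays of a channel. In bulk samples, fewer cells of a type and less RNA per cell cannot be told apart, and the part of the marker difference in the values of *pir*, *gclm* and *blvrb* was not tested.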

How the data were processed

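Total RNA of GO-treated and control cells, from samples with RIN of at least 9.2, was labeled and hybridized to 4 horse arrays of 1 slide. All arrays share the slide, so it is no batch that can be tested. The authors used an Agilent scanner and obtained the intensities with Feature Extraction (version 10.10.1.1 per the file headers, whereas the methods state another). The deposited intensity values are raw mean signals with median local backgrounds, signals less background, and processed signals, to which linear and lowess dye normalization had been applied. The deposited log10 ratios are those of processed Cy5 over Cy3 signals, and a series-wide file of the authors repeats them (180880 of 180880 values equal).

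Ratios were converted to log2. Control spots (1417) and outlier spots were omitted, and spots of a probe were averaged. Of 43603 probes, 26831 were tested. These were well above background on all 4 arrays in at least 1 channel. The ratios were fitted on an intercept with lmFit and eBayes (limma 3.58.1 in R 4.3.3, with data.table, version 1.17.8), and figures were drawn with matplotlib 3.10.9. The thresholds are those of the methods, which do not name the test. Files gave a symbol for 24960 probes, and 1684 more were named by gene number and 433 by accession from RefSeq genes of the TB-T2T assembly, of which only names were used. The EquCab1 positions are those of the files.

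The pairing of the channels by array was described with each channel's deviation from the mean of its group. The correlation within an array was 0.617, 0.857, 0.709 and 0.471, and between arrays it lay between -0.527 and 0.264. Both channels of an array share its spots and were dye-normalized together, and deviations from a mean of 4 arrays sum to 0. The correlations thus cannot show whether the cultures were paired. The processed signals were normalized between arrays (Aquantile) for these correlations and for the unpaired test. That normalization was chosen after the count without it had been seen, and both are given. An earlier form of the filter on dim probes, which counted outlier spots, was also replaced after its calls were seen: it kept 26834 probes and also gave 2399 calls. The tests were tried on simulated data.

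The members and gene lists were chosen with earlier results of these data known. The result of 1 gene of the pathway lists is not reported here, and the counts over these lists are given without it. The genes named were all members, the pathway genes past both thresholds, and the 3 genes closest to each member past both, and further genes are named with a remark. Alternatives were other normalizations (normexp with an offset of 50 and loess, or median centring), filters, tests, array weights, the pairing, the threshold, another probe choice and the omission of each array.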

Additional observations from a re-analysis of the deposited data

Results flagged for a closer look

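The log2 ratio of *hmox1* on array 4, 1.13, lay far from the other arrays, which were between -0.073 and 0.033. Its gap to the nearest array was 0.912 of the range, above the 95% critical value of Dixon's test for 4 values. This was 1 of 21 probes examined, and chance gives about 1 in 20. The cause was not tested.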

How the results depend on the processing

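Past both thresholds were 3 member probes, 1 member gene, 1 pathway gene and 2399 probes in all. Median centring gave 3 pathway genes (*fth1* and *blvrb*, higher, and *ephx1*, lower at -0.48). In the main setting *ephx1* was at -0.49 (limma, adjusted p = 0.0674). The 3389 probes of median centring were 51.3% higher, against 37.3%. Normexp with loess gave 1297 probes in all, with *fth1* as the 1 pathway gene. Array weights gave 2 pathway genes (*blvrb*, higher, and *ephx1*, lower). With no filter on dim probes there were 908 probes, and with the plain one-sample test 147 probes, 1 member probe and 0 pathway genes. Adjusted p alone gave 4859 probes, 2 member genes and 5 pathway genes. Without the replicate block that pairs the channels of an array, 919 probes (26.8% higher) passed. In an alternative added after the data were seen, also unpaired but not normalized between arrays, 370 probes (17.8% higher), 0 member probes, 0 member genes and 0 pathway genes passed, and *pir* had an adjusted p of 0.0853 (limma). With 1 array left out, 1566 to 2430 probes and 1 to 3 pathway genes passed. The 3 were without array 1, with *ephx1* and *mafg*, both lower, and the 1566 without array 2. Each time 3 member probes and 1 member gene passed. The call of the brightest *pir* probe was lost only in that unpaired alternative without normalization between arrays. The direction of a member's brightest probe turned for *hmox1* (-0.0093 without array 4, up to 0.39 without another array), *pgd* (-0.076 without array 1, up to 0.14 without another) and *taldo1* (0.0033 with median centring). The cause was not tested. The pass of *gclm* by the adjusted p alone was lost in 8 of 12 alternatives. Of the dimmest member probes, the interval of *hmox1* includes changes past the fold threshold and that of *txnrd1* does not, and the part of low signal over background in this was not tested.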
